A study of Mus musculus with 16 samples.

Results

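The genes described here encode the mouse receptors for the constant region of immunoglobulin G and the chain through which they signal. They were the rows of the deposited expression table whose gene symbol was Fcgr1, Fcgr3, Fcgr4, Fcgr2b, Fcer1g or Fcgrt, and all 6 symbols were found among the 17951 genes listed. The libraries came from microglia that were sorted by flow cytometry, as live cells positive for Cd11b, Cd45 and Cx3cr1, from the brains of mice injected with Methoxy-X04 (Me-X04), a dye that enters the brain and binds amyloid. All mice belonged to the 5xFAD line, whose transgenic animals (TG) carry transgenes under a neuronal promoter that lead to amyloid deposits in the brain. The 3 groups were microglia of WT mice without dye (7 libraries, 2 months old by the labels), TG microglia without dye (TG Me-X04-, 5 libraries, 6 months) and TG microglia that had taken up the dye (TG Me-X04+, 4 libraries, 6 months). The methods of the study give other ages than the labels, and by the labels age and genotype cannot be told apart in a comparison with WT. Both fractions of 4 TG animals were sequenced, and a shared replicate number then stands for 1 mouse.

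Fc gamma receptors bind the constant region of antibodies that coat a particle and so allow phagocytes to engulf it. Fcgr1, Fcgr3 and Fcgr4 encode the activating receptors, which do not signal alone and need the common gamma chain encoded by Fcer1g, whose cytoplasmic ITAM motif recruits the kinase Syk. Fcgr2b encodes the inhibitory receptor, which carries its own ITIM motif and recruits the phosphatase SHIP1, the product of Inpp5d. Fcgrt encodes the neonatal Fc receptor, which pairs with beta-2-microglobulin (B2m) and returns internalised immunoglobulin and albumin to the cell surface. In microglia these receptors are known for the antibody-dependent uptake of amyloid.

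By the annotation at hand (Gencode M21 on GRCm38), 4 of the 6 genes lay in 1 stretch of chromosome 1: Fcgr2b at 170958617 to 170976547 on the minus strand, Fcgr4 at 171018920 to 171029761 on the plus strand, Fcgr3 at 171051174 to 171064935 on the minus strand and Fcer1g at 171229572 to 171234365 on the minus strand. Fcgr1 lay on chromosome 3 at 96282909 to 96293969 and Fcgrt on chromosome 7 at 45092990 to 45103851, both on the minus strand. Fcgr2b and Fcgr3 are near-identical copies over their extracellular immunoglobulin domains. The stretch of their coding sequence below, which joins exons 3 and 4 of a transcript of each gene, is shown because reads that lie within it cannot be assigned to 1 of the 2 genes unless they cover its only differing base, which is in capitals (GRCm38, minus strand; the span includes the intron between the exons, which is not printed).
Fcgr2b, chr1:170966560-170968081: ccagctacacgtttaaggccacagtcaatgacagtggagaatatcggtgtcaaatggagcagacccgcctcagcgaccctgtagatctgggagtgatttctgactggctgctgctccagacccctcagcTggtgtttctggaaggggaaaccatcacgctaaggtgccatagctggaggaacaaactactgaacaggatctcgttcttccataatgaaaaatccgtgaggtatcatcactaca
Fcgr3, chr1:171054053-171057792: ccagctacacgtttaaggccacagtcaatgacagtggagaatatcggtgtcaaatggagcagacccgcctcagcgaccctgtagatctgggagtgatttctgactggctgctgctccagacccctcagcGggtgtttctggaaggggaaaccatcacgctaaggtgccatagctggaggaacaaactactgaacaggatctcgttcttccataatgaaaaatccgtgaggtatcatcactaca
Of these 243 bases, 242 were identical. Over all annotated transcripts, 166 of the 1733 distinct words of 50 bases in Fcgr3 (9.58%) also occurred in Fcgr2b, which is 2.92% of the 5685 words of Fcgr2b. With any other gene Fcgr2b shared 249 (4.38%) of its words of 50 bases and 156 (2.70%) of its 5768 words of 75 bases. At 75 bases the words shared by Fcgr3 and Fcgr2b were 94, or 5.42% of those of Fcgr3 and 1.63% of those of Fcgr2b. The study used reads of both lengths, and the labels do not say which library had which. Fcgr1, Fcgr4, Fcer1g and Fcgrt had 0 words of either length in common with another gene. The values of Fcgr2b and Fcgr3 are uncertain to the extent of these shared reads, whose part in the results was not tested. By the annotation, Mir6546 overlaps Fcgr3, Gm26110 overlaps Fcgr4, Gm38204 overlaps Fcgr2b and Gm45669 overlaps Fcgrt, and whether the counting used the strand is not given in the sources used here.

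The bases before the transcription start of Fcer1g and Fcgr3 are shown for the reasons that follow. Fcer1g was the only member called between the TG fractions. Fcgr3 was the receptor with the highest mean level in every group, and it was not called. The capitals mark each GGAA or its reverse TTCC, the core bound by PU.1 (Spi1) and the other ETS factors, over the 250 bases before the RefSeq start (GRCm38.p6, minus strand). The Fcgr3 window lies within the span of the gene given above, because another annotated transcript starts further upstream.
Fcer1g, chr1:171234350-171234599: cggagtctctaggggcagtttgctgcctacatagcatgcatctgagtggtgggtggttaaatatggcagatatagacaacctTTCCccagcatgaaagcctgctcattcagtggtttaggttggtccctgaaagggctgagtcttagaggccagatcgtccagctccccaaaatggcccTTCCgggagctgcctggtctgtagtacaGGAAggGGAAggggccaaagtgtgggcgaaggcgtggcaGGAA
Fcgr3, chr1:171059404-171059653: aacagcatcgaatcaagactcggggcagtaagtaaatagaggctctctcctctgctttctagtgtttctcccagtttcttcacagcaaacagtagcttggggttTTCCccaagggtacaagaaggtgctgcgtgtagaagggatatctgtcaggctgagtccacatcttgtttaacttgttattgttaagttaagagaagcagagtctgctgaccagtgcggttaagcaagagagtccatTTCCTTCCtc
On both strands, Fcer1g had 5 matches, Fcgr3 had 3, Fcgr1 had 6, Fcgr4 had 5, Fcgr2b had 4 and Fcgrt had 3, while 93.4% of the 32851 promoters of the same length held at least 1 and 18.0% held 5 or more. The longer GAGGAA, which contains GGAA, had 1 match each in Fcgr1, Fcgr3 and Fcgr4 and 0 in Fcgr2b, Fcer1g and Fcgrt, against 23.3% of all promoters with a match. The palindrome TTCNNNGAA of STAT factors was found in Fcgr1 alone among the members (7.02% of all promoters), and the E-box CACGTG in 0 of the 6 (6.02%). These matches are letters in a window and not sites of binding.

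All levels below are log2 RPKM, the log2 of reads scaled to gene length and to the TMM-corrected library size, so that 1 unit is a change by a factor of 2. Reads on listed genes ranged from 15623664 to 27579017 per library. The libraries of every group fell into 2 sets. After group means were taken away, the leading principal component held 37.8% of the variance and separated set A (WT 1 to 3 and replicates 1 and 2 of both TG fractions, 7 libraries) from set B (the other 9), and no label gives the reason. The libraries of set A had 503 to 1831 listed genes at 0 reads, against 55 to 524 in set B. Genes of the mitochondrial genome took 31.3% to 56.8% of the reads in TG Me-X04+, 20.6% to 44.8% in TG Me-X04- and 12.6% to 31.3% in WT, and scaling by the reads outside them moved the median log2 fold change of all genes between the TG fractions from -0.09 to -0.37. Their part in the results was not tested. In sorted bulk samples, fewer cells of a type and less RNA per cell cannot be told apart. All 10 microglial markers were listed and summed to between 4314 and 8164 RPKM in the 16 libraries, although 1 of them, Tmem119, was called lower in the dye-positive TG fraction (a log2 fold change of -1.58 by limma).

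The gamma chain Fcer1g was the most abundant member in every library. Its group means were 9.02 ± 0.34 (SD, n = 7) in WT, 9.30 ± 0.44 (n = 5) in TG Me-X04- and 10.32 ± 0.24 (n = 4) in TG Me-X04+, where it ranked 43 from the top of the 17951 genes. The next was Fcgr3, with 6.94 ± 0.58, 7.22 ± 0.47 and 7.45 ± 0.69 in the same order. The inhibitory Fcgr2b followed with 5.46 ± 0.37, 5.63 ± 0.42 and 6.42 ± 0.47, and Fcgr1, the high-affinity receptor, with 5.27 ± 0.19, 5.27 ± 0.27 and 5.17 ± 0.18. Fcgr2b and Fcgr1 differed by less than their spread in WT and in TG Me-X04-, while in TG Me-X04+ the ranges of the 2 genes did not overlap (5.90 to 6.99 against 4.93 to 5.34). Fcgrt (2.23 ± 1.08, 2.31 ± 0.76 and 0.43 ± 2.78) and Fcgr4 (0.84 ± 1.54, 1.77 ± 1.00 and 2.66 ± 0.72) were the lowest, and their order was not separated by their spread in any group. The receptors present at a high level in these microglia were thus Fcgr3, Fcgr2b and Fcgr1, with 1831 to 11023 reads each per library except Fcgr1, which had 1043 to 3179.

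**Figure D1:**
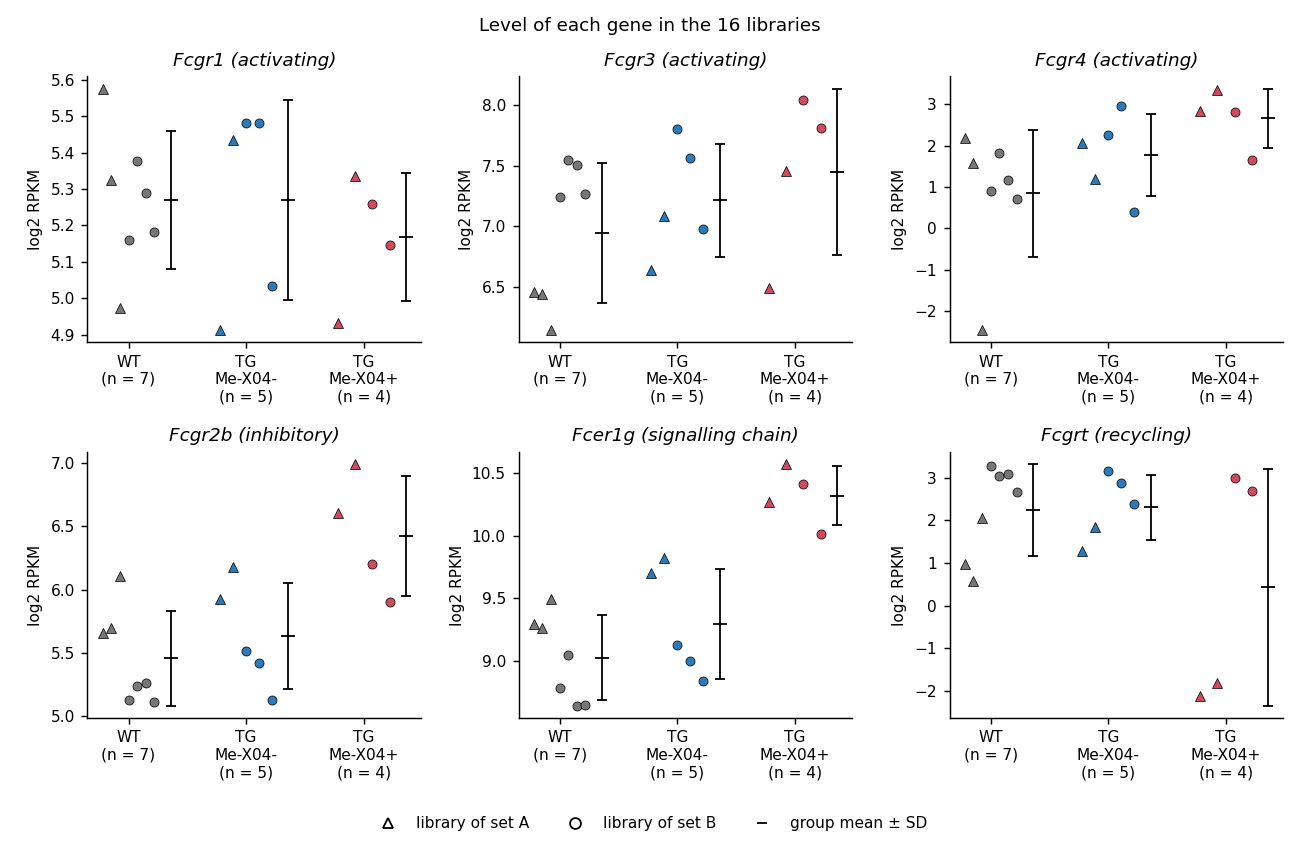
Log2 RPKM (y axis, a separate scale for each gene) of the 6 genes in every library by group (x axis). Triangles are libraries of set A, circles those of set B, and the bars give the group mean ± SD. Fcer1g in TG Me-X04+ (10.01 to 10.57) lay above all other libraries, and Fcgrt was near -2 in the 2 TG Me-X04+ libraries of set A alone.

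The first comparison asked which receptors differ between microglia with and without amyloid dye in the same transgenic brains. Fcer1g rose in TG Me-X04+ and was the only one of the 6 genes called, where a call was a limma adjusted p under 0.05 over all genes together with a log2 fold change of at least 0.7. By this rule 5.49% of all genes were called in this comparison, so that 1 of 6 members is not to be read as a shift of the family. Fcer1g was 9.70, 9.82, 9.12, 8.998 and 8.83 in TG Me-X04- replicates 1 to 5 and 10.27, 10.57, 10.42 and 10.01 in TG Me-X04+ replicates 1 to 4. Every TG Me-X04+ library lay above every TG Me-X04- library, as for 7.93% of all genes in either direction. The log2 fold change was 1.02 ± 0.29 (SE), a factor of 2.03 (95% confidence interval 1.34 to 3.09), with a limma adjusted p of 0.0435. In the same animals Fcer1g was higher in TG Me-X04+ by 0.57, 0.75, 1.30 and 1.02, and with the animal as a block on the TG libraries alone the difference was 0.91 with a limma adjusted p of 0.00962.

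The Fcer1g call was near its threshold. It was lost without any 1 of TG Me-X04- replicates 3, 4 or 5 or TG Me-X04+ replicates 1, 2 or 3, when only these 2 groups were fitted (limma adjusted p = 0.151), in set A alone (0.66, limma adjusted p = 0.153), without both TG Me-X04+ libraries of set A, which leaves that fraction in set B alone (0.92, limma adjusted p = 0.206), and under 3 other scalings. Leaving out single libraries gave 0.91 to 1.16. The scalings gave 0.75 with reads outside mitochondrial genes (limma adjusted p = 0.0966), 1.06 with centred medians (0.0894) and 0.26 after quantile normalization (0.54). In set B alone the difference was 1.23 (limma adjusted p = 0.00571).

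The inhibitory receptor Fcgr2b was 5.93, 6.17, 5.51, 5.42 and 5.12 in TG Me-X04- replicates 1 to 5 and 6.60, 6.99, 6.20 and 5.90 in TG Me-X04+ replicates 1 to 4. The groups overlapped only through TG Me-X04- replicates 1 and 2, both in set A, and within each set every TG Me-X04+ library was the higher. The log2 fold change was 0.79 ± 0.27 (SE), with a limma adjusted p of 0.107, and was not called. Within animals Fcgr2b was higher in TG Me-X04+ in 4 of 4, by 0.68, 0.82, 0.69 and 0.48. A term for the 2 sets gave 0.72 ± 0.13 and a limma adjusted p of 0.00155, past both thresholds of a call. The sets were drawn from the variation left in these same values after group means were taken away, which the term then removes in part. With the term the calls over all genes rose from 986 to 2142, so it is no independent support. With the animals as a block on the TG libraries alone the adjusted p was 0.0193 by limma but the difference, 0.67, was under the fold threshold. The difference was 0.52 when scaled by reads outside mitochondrial genes (limma adjusted p = 0.21), 0.24 after quantile normalization and 0.42 without both TG Me-X04+ libraries of set A (limma adjusted p = 0.562). Leaving out single libraries gave 0.60 to 0.97, and none of these was a call.

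The activating receptors did not pass the test. Fcgr1 was 4.91, 5.44, 5.48, 5.48 and 5.03 in TG Me-X04- and 4.93, 5.34, 5.26 and 5.15 in TG Me-X04+, ranges that lay on top of each other. Its log2 fold change was -0.10 ± 0.18 with a 95% confidence interval from -0.48 to 0.28. At this scaling the interval excludes the fold threshold in either direction. Alternatives other than leaving out single libraries gave -0.49 to -0.04, and no intervals are given for them. Fcgr3, the low-affinity activating receptor and the most abundant by mean level, was 6.64, 7.09, 7.80, 7.57 and 6.98 in TG Me-X04- and 6.49, 7.46, 8.05 and 7.82 in TG Me-X04+. The difference of 0.24 ± 0.36 had an interval from -0.53 to 1.00, which includes a change of the size seen for Fcgr2b, and it turned to -0.49 after quantile normalization and to -0.04 when scaled by reads outside mitochondrial genes. Fcgr4, a receptor of intermediate affinity, was 2.06, 1.19, 2.26, 2.95 and 0.39 in TG Me-X04- and 2.84, 3.34, 2.80 and 1.64 in TG Me-X04+. It rested on 38 to 243 reads per TG library, and its difference of 0.89 ± 0.75 (interval -0.69 to 2.46) was not called, with a value of -1.31 in animal 4 and of 0.54 to 2.15 in the other 3 animals.

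The neonatal receptor Fcgrt was 1.28, 1.84, 3.16, 2.86 and 2.38 in TG Me-X04- and -2.13, -1.81, 2.99 and 2.68 in TG Me-X04+. The 2 low values were 4 and 6 reads in TG Me-X04+ replicates 1 and 2, against 68 and 122 reads in the TG Me-X04- libraries of the same animals, while replicates 3 and 4 of TG Me-X04+ held 313 and 260 reads. The log2 fold change of -1.87 ± 0.94 was not called (limma adjusted p = 0.304). Within animals the difference was -3.40 and -3.65 in set A and -0.18 and -0.19 in set B. The effect in set B minus that in set A was 3.56 ± 0.59, with a limma adjusted p of 0.0613 for this interaction. The sets were drawn from these same values. The libraries with the low Fcgrt values were also those with the most listed genes at 0 reads (1831 and 1781) and the highest mitochondrial shares (55.2% and 56.8%), and the part of these in the low values was not tested. In set B alone the difference was 0.03.

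**Figure D2:**
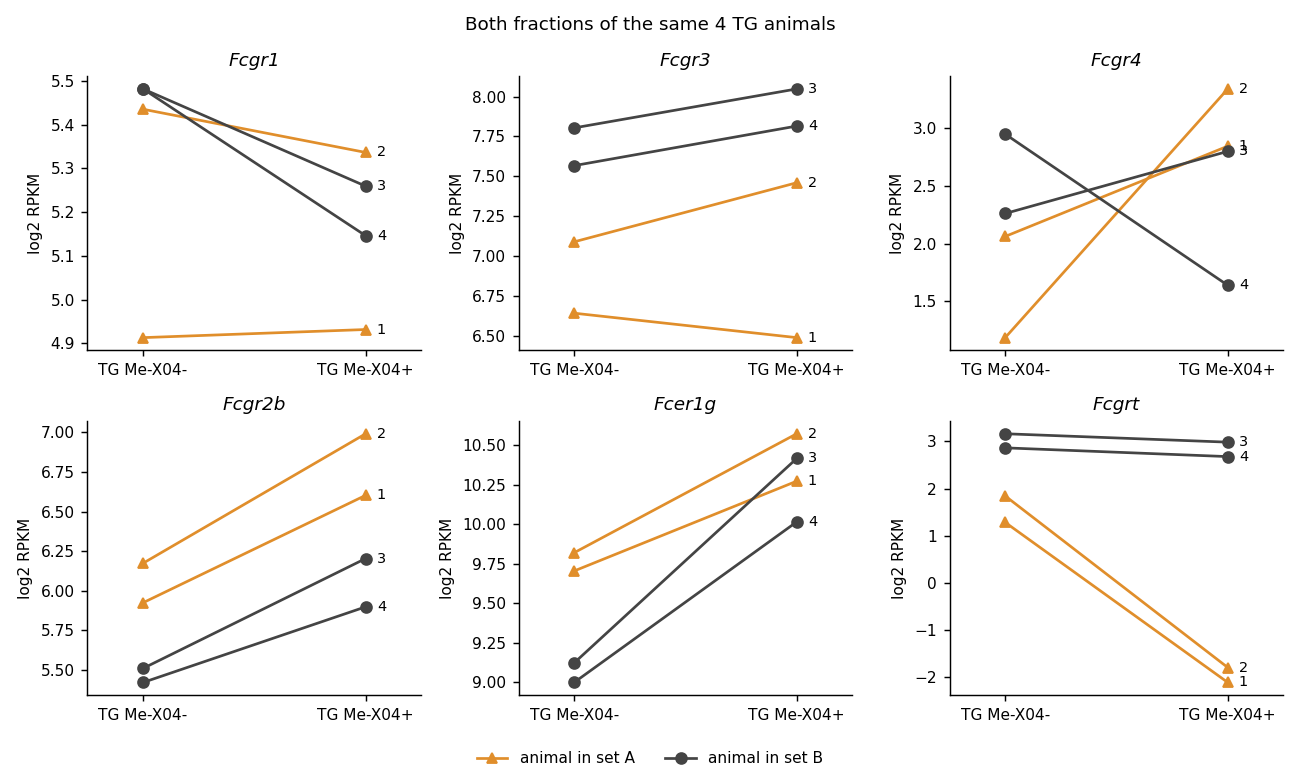
Log2 RPKM (y axis, a separate scale for each gene) in both TG fractions (x axis) of the 4 TG animals of which both were sequenced. Each line is 1 animal, numbered at its right end, with animals of set A in orange and those of set B in grey. Fcgr2b and Fcer1g rise in all 4 lines, while Fcgrt falls by 3.40 and 3.65 in animals 1 and 2 and by 0.18 and 0.19 in animals 3 and 4.

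The second comparison set TG Me-X04- against WT microglia, which addresses the transgenic brain without uptake of dye, with age differing as well. Of the 6 genes, 0 were called by limma, where 0.201% of all genes were, 0 reached an unadjusted p under 0.05, and 0 had groups that did not overlap (1.06% of all genes). The log2 fold changes were 0.00 ± 0.16 (SE) for Fcgr1, 0.27 ± 0.32 for Fcgr3, 0.92 ± 0.65 for Fcgr4, 0.18 ± 0.24 for Fcgr2b, 0.27 ± 0.25 for Fcer1g and 0.07 ± 0.82 for Fcgrt, all with a limma adjusted p of 0.999. The 95% confidence intervals reached from -0.33 to 0.33 for Fcgr1, from -0.33 to 0.68 for Fcgr2b and from -0.25 to 0.80 for Fcer1g, and were wider for the other 3. A change of Fcgr1 or Fcgr2b as large as the fold threshold was outside these intervals, and one of Fcgr4 or Fcgrt was not.

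The third comparison set TG Me-X04+ against WT microglia and shares its TG Me-X04+ libraries with the first. Of the 6 genes, 2 were called, both higher, where 14.3% of all genes were called. Fcer1g in WT had a lowest value of 8.64, a median of 9.04 and a highest of 9.50, all under the lowest TG Me-X04+ library, and groups that did not overlap were seen for 10.5% of all genes. Its log2 fold change was 1.30 ± 0.27 (SE), a factor of 2.46 (95% confidence interval 1.66 to 3.62), with a limma adjusted p of 0.0027. Fcgr2b in WT ran from 5.11 over a median of 5.26 to 6.10, which is WT replicate 3 and the only WT library within the TG Me-X04+ range. Its log2 fold change was 0.97 ± 0.26, a factor of 1.96 (1.35 to 2.84), with a limma adjusted p of 0.0153. Without TG Me-X04+ replicate 2 the Fcgr2b call was lost (difference 0.78, limma adjusted p = 0.0691), and after quantile normalization both calls were lost (0.45 for Fcgr2b and 0.41 for Fcer1g).

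The other receptors were not called against WT. Fcgr1 in WT lay between 4.97 and 5.58 with a median of 5.29, and its difference was -0.10 ± 0.17. Fcgr3 lay between 6.14 and 7.55 with a median of 7.25, and its difference was 0.51 ± 0.34 (limma adjusted p = 0.365). Fcgr4 lay between -2.45 and 2.17 with a median of 1.17, its difference was 1.81 ± 0.70 (limma adjusted p = 0.0952), and the lowest value was that of WT replicate 3, with 2 reads. Without that library the Fcgr4 difference was 1.26 (limma adjusted p = 0.0821), and that between TG Me-X04- and WT was 0.38. Fcgrt lay between 0.57 and 3.26 with a median of 2.66, and its difference of -1.80 ± 0.88 (limma adjusted p = 0.195) was not called. With a term for the sets, which were drawn from these same values, it was -1.63 (limma adjusted p = 0.0259). That term raised the calls over all genes from 2562 to 3919. In set A alone Fcgrt was lower than in WT by a log2 fold change of -3.16, in set B by one of -0.18, and this contrast between the sets passed the test (2.99 ± 0.55, limma adjusted p = 0.0276), as for 0.629% of all genes.

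**Figure D3:**
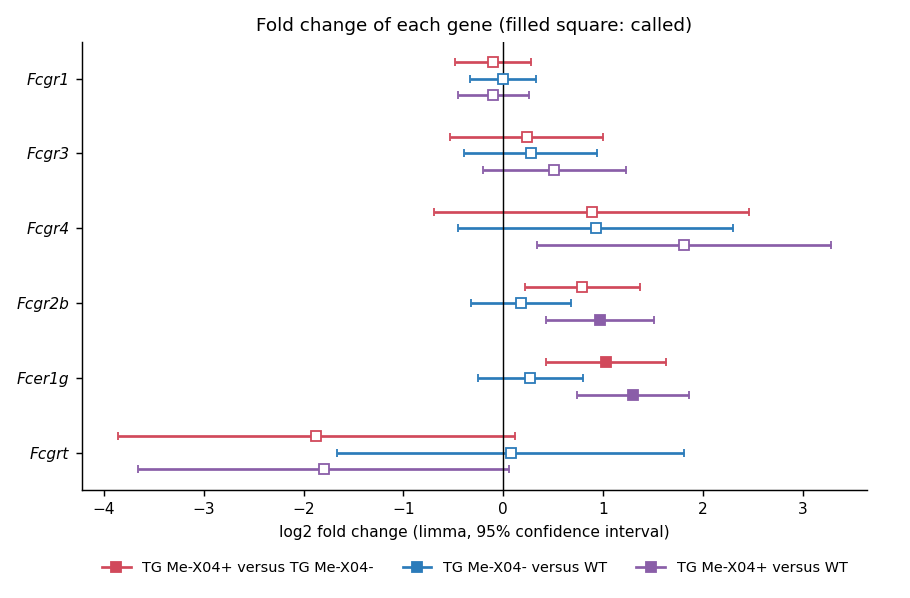
Log2 fold change of each gene (x axis) in the 3 comparisons, as fitted by limma, with 95% confidence intervals. Filled squares are calls, which are Fcer1g in TG Me-X04+ versus TG Me-X04- (1.02) and Fcer1g and Fcgr2b in TG Me-X04+ versus WT (1.30 and 0.97), and the intervals of Fcgr1 include 0 in all 3.

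To set activating against inhibitory receptors, the log2 RPKM of Fcgr2b was subtracted from that of each activating receptor in the same library, which removes the scaling of the library. The value for Fcgr1 was -1.01, -0.74, -0.03, 0.06 and -0.09 in TG Me-X04- replicates 1 to 5 and -1.67, -1.65, -0.94 and -0.75 in TG Me-X04+ replicates 1 to 4. In WT it ran from -1.13 over a median of 0.03 to 0.14. The means were -0.19 ± 0.45 (SD, n = 7), -0.36 ± 0.48 (n = 5) and -1.26 ± 0.48 (n = 4), so that Fcgr1 was at 0.88, 0.78 and 0.42 of the Fcgr2b level in the same order. The differences of -0.89 between the TG fractions (2-sided exact permutation p = 0.0556, adjusted over 9 tests 0.25) and of -1.07 against WT (exact permutation p = 0.00909, adjusted 0.0818) did not pass the correction. Within animals the ratio was lower in TG Me-X04+ in 4 of 4, by values of -0.66, -0.92, -0.92 and -0.81, and an exact sign-flip test, the form of the replicate block used here, gave p = 0.125, the smallest that 4 animals allow. With libraries permuted within their set, the exact p was 0.0167 between the TG fractions, adjusted 0.075, and 0.00667 against WT, adjusted 0.06. Without WT replicate 3 the difference from WT was -1.23 and passed (exact permutation, adjusted p = 0.0429). It did not pass in the other 10 of the 11 fits that left out 1 library. Without both TG Me-X04+ libraries of set A, which leaves that fraction in set B alone, it was -0.66 (exact permutation, adjusted p = 0.75). Between the TG fractions that setting gave -0.49 (exact permutation p = 0.333).

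For Fcgr3 the ratio followed the set of the library more than the group. It was 0.72 and 0.92 in the TG Me-X04- libraries of set A and 2.29, 2.14 and 1.86 in those of set B, and -0.11 and 0.47 against 1.84 and 1.92 in TG Me-X04+. Over all groups it lay between -0.11 and 0.92 in set A and between 1.84 and 2.31 in set B, with no overlap. The sets were drawn from these same values, and how many other genes or ratios separate by set was not counted. Fcgr3 was thus 1.42 times the Fcgr2b level in set A and 4.28 times in set B, taken from the means of 7 and 9 libraries. The difference between the TG fractions was -0.56 (exact permutation p = 0.365, adjusted 0.675), with all 4 animals lower, by values from -0.23 to -0.83, and within the sets the exact permutation p was 0.0333, adjusted 0.1. These are also the 2 genes that share coding sequence, whose part in this split was not tested.

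For Fcgr4 the values ran from -4.99 to -2.47 in TG Me-X04-, from -4.26 to -3.40 in TG Me-X04+ and from -8.55 to -3.42 in WT. The 3 groups overlapped, the difference between the TG fractions was 0.09 (exact permutation p = 0.873) and turned to -0.08 with 1 added to the RPKM, and none of the 3 comparisons passed. Between TG Me-X04- and WT none of the 3 ratios passed, with differences of -0.18 for Fcgr1, 0.10 for Fcgr3 and 0.75 for Fcgr4 (exact permutation p = 0.51, 0.845 and 0.525, each adjusted to 0.675 or more). The Fcgr4 differences from WT rested on the 2 reads of WT replicate 3, and without that library they were 0.09 for TG Me-X04- (exact permutation p = 0.859) and 0.19 for TG Me-X04+ (exact permutation p = 0.481), beside 0.75 and 0.84 with it.

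**Figure D4:**
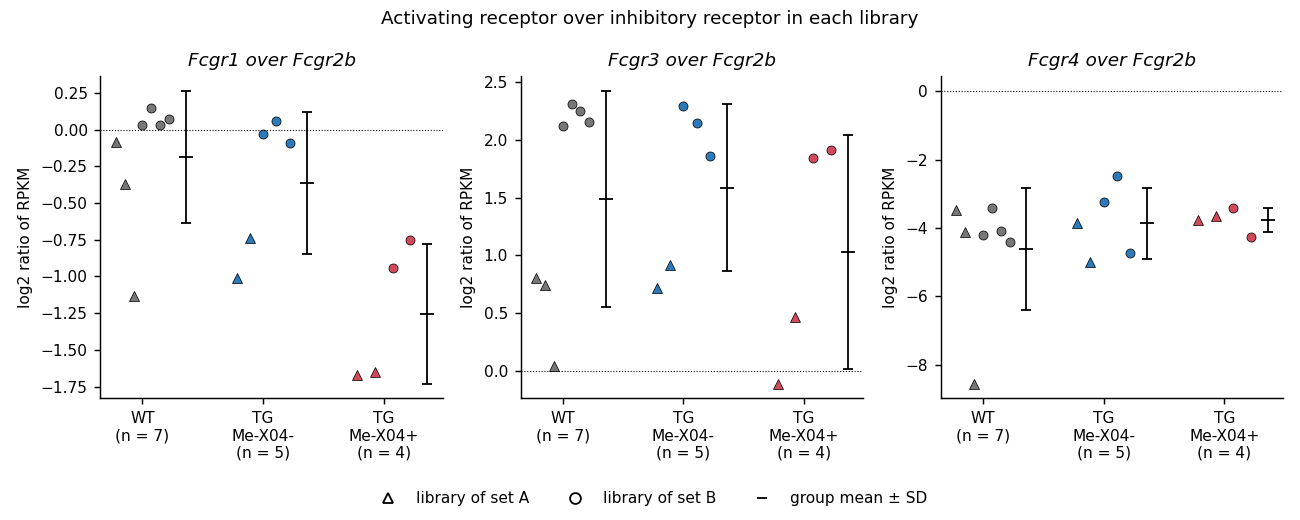
Log2 ratio of the RPKM of each activating receptor to that of Fcgr2b (y axis, a separate scale for each panel) in every library by group (x axis), with the group mean ± SD. Triangles are libraries of set A and circles those of set B. The mean Fcgr1 ratio is lowest in TG Me-X04+ (-1.67 to -0.75), a range that includes WT replicate 3 (-1.13) and TG Me-X04- replicate 1 (-1.01). Its mean also differs between the sets (-0.95 in set A and -0.16 in set B). The Fcgr3 ratio separates with no overlap by the sets, which were drawn from these same values (-0.11 to 0.92 against 1.84 to 2.31).

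Fcgr2b and Fcer1g varied together across the libraries. Pearson's r between their log2 RPKM was 0.94 over 16 libraries, 0.97 within the 7 of set A and 0.97 within the 9 of set B, as a description of libraries that share groups, sets and scaling. Fcgr3 had an r with Fcgr2b of -0.15 over all libraries but of 0.64 within set A and 0.88 within set B. Both genes share coding sequence with each other, and the part of shared reads, sets and groups in these values was not tested. Fcgr1 had values of r between -0.22 and 0.12 with Fcgr2b in the same 3 groupings. Among the 13318 other genes with a mean log2 RPKM of at least 0, the 3 with the pattern most like Fcer1g were Lamp2, which encodes a lysosomal membrane protein (r = 0.97), Mpeg1, a macrophage pore-forming protein (0.97), and Atp1b3, a sodium pump subunit (0.96). For Fcgr2b they were Gm21974, Vkorc1 and Atp1b3 (0.98, 0.98 and 0.97). For Fcgr3 they were Gm5239, Gm5529 and Cst3 (0.96, 0.96 and 0.95), for Fcgr1 Polrmt, Cnbd2 and Dynlt1a (0.83, 0.82 and 0.81), for Fcgr4 Ifit3, Gtpbp3 and Chmp4b (0.89, 0.86 and 0.86) and for Fcgrt Rps19bp1, Gm4349 and Nr3c2 (0.96, 0.95 and 0.95), each over the same 16 libraries.

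**Figure D5:**
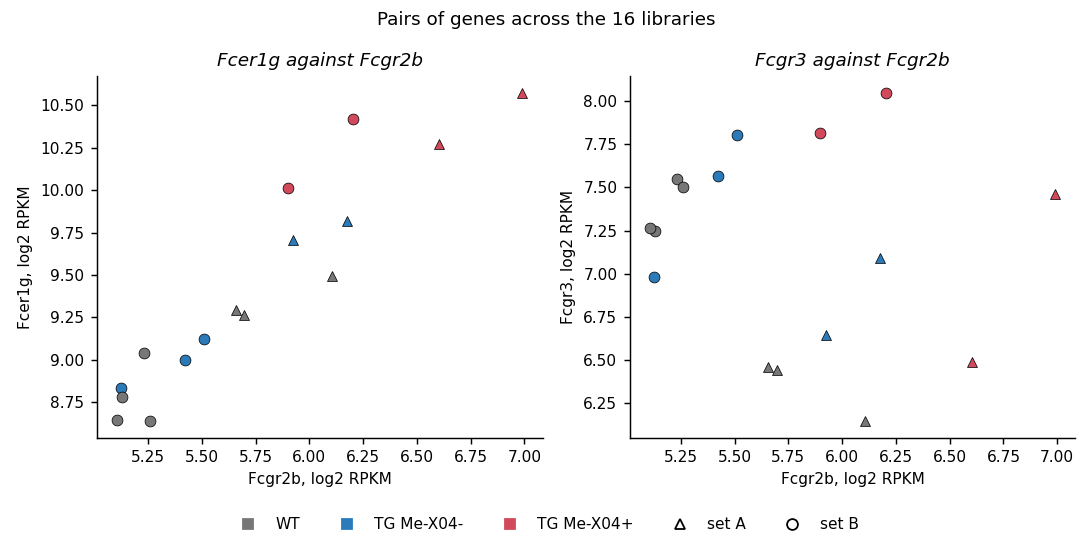
Log2 RPKM of Fcer1g (left) and Fcgr3 (right) on the y axis against that of Fcgr2b on the x axis, 1 point per library, with colours for the groups, triangles for set A and circles for set B. Fcer1g and Fcgr2b lie along 1 line (r = 0.94), while Fcgr3 and Fcgr2b form 1 band per set (r = 0.64 in set A and 0.88 in set B).

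The partners and the signalling genes of the receptors were read from lists chosen with earlier results of these data known, so their counts are descriptions, to be read beside the 5.49% of all genes called between the TG fractions and the 14.3% called in TG Me-X04+ versus WT. B2m, the light chain of the neonatal receptor and of class I molecules, rose in TG Me-X04+ while Fcgrt did not. It lay between 10.70 and 12.16 in TG Me-X04- and between 12.97 and 13.37 in TG Me-X04+, with no overlap and a log2 fold change of 1.54 ± 0.42 (limma adjusted p = 0.038). It was the only one called of the 5 listed genes of 14 in the list of other Fc receptors and immunoglobulin-binding proteins. Of the receptors and chains coupled through Fcer1g or its relatives, 5 of 11 were listed and 0 were called between the TG fractions. Of these 5, 2 had a log2 fold change above 0, and the list median was -0.11 beside -0.09 over all genes. Tyrobp, the adaptor DAP12 that is related to the gamma chain, lay between 8.07 and 10.47 in TG Me-X04- and between 9.99 and 12.33 in TG Me-X04+, with a difference of 1.90 ± 0.65 (limma adjusted p = 0.104). With the animal as a block it was a call (1.97, limma adjusted p = 0.00082), and it was called against WT (2.24 ± 0.61, limma adjusted p = 0.0184).

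Of the activating signalling genes 33 of 35 were listed, and 1 was called between the TG fractions, with a list median log2 fold change of -0.18 beside -0.09 over all genes. It was Fyn, a kinase of the Src family, which lay between -0.98 and 0.50 in TG Me-X04- and between 0.85 and 3.03 in TG Me-X04+ (1.75 ± 0.46, limma adjusted p = 0.0347). With the animal as a block the Fyn call was lost (1.81, limma adjusted p = 0.139). Syk, the kinase that binds the phosphorylated gamma chain, had means of 3.08 and 2.53 in the dye-negative and dye-positive TG fraction and a difference of -0.55 ± 0.30 (limma adjusted p = 0.357). All 14 inhibitory signalling genes were listed, with a median of -0.11, and 1 was called. It was Dok3, an adaptor that dampens ITAM signals, which lay between 1.20 and 3.04 in TG Me-X04- and between -4.01 and 1.54 in TG Me-X04+ (a log2 fold change of -3.30 ± 0.79, limma adjusted p = 0.0202). Leaving out single libraries gave Dok3 values of -4.20 to -2.35, and the other alternatives gave -3.80 to -1.67. The phosphatase genes downstream of Fcgr2b and related ITIM receptors were not called, with differences of -0.44 ± 0.38 for Inpp5d and -0.11 ± 0.30 for Ptpn6.

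Of the 14 regulators of Fc receptor transcription, all were listed and 2 were called between the TG fractions, with a median of -0.16. Ifngr1, a chain of the interferon gamma receptor, fell from a mean of 6.68 to 5.82 (a log2 fold change of -0.86 ± 0.22, limma adjusted p = 0.0319), and Tgfbr2, a chain of the TGF-beta receptor, rose from 6.17 to 7.23 (1.06 ± 0.27, limma adjusted p = 0.0289), both without overlap between the TG fractions. The calls of B2m, Fyn, Dok3, Ifngr1 and Tgfbr2 were each lost without some single libraries, among them TG Me-X04- replicates 4 and 5 in every case, and those of B2m, Fyn and Tgfbr2 also when scaled by reads outside mitochondrial genes. In TG Me-X04- versus WT, 0 genes of these lists were called. In TG Me-X04+ versus WT, 1 of the 5 listed other Fc receptors and immunoglobulin-binding proteins was called higher and 2 lower, and of the 5 coupled receptors and chains 2 were higher and 1 lower. In the same comparison 3 of the 33 activating signalling genes were called higher and 3 lower, 0 of the 14 inhibitory ones higher and 2 lower, and 2 of the 14 regulators higher and 1 lower. Of the immunoglobulin transcripts 2 of 9 were listed and the heavy chains of immunoglobulin G were not among them.

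Most genes that lie beside the members were not called. Of the 11 listed genes within 100 kb of Fcer1g, 0 were called between the TG fractions, with log2 fold changes from -0.79 to 0.94, and the same held for 6 neighbours of Fcgr2b (-0.96 to 0.94), 3 of Fcgr3, 4 of Fcgr4 and 22 of Fcgr1. Of the 16 neighbours of Fcgrt 2 were called, Rpl13a, a ribosomal protein gene (1.21 ± 0.28), and Prr12 (-1.04 ± 0.27), beside the 5.49% of all genes. The Rpl13a call was kept in 8 of 9 fits that left out 1 library, and that of Prr12 in 3 of 9. Against WT the called neighbours included Dusp12 near Fcgr2b (-1.37), Usp21 and Rpl27-ps1 near Fcer1g (-1.02 and 1.31), and Bcl2l12, Prr12, Rpl13a and Mir5121 near Fcgrt (-2.05, -1.28, 1.60 and 1.51), where 14.3% of all genes were called. Of the 11 fits that left out 1 library, the calls of Usp21, Prr12 and Rpl13a against WT were kept in 11, that of Dusp12 in 8, that of Rpl27-ps1 in 5 and those of Bcl2l12 and Mir5121 in 3 each.

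Markers of other cells that carry Fc receptors were read beside these results. Of the B cell markers 3 of 6 were listed, and they summed to 64.4 to 195 RPKM in TG Me-X04- and to 152 to 285 in TG Me-X04+, mainly through Ighm (means 6.75 and 7.71, limma adjusted p = 0.0987), while the defining Ms4a1 was not listed and Cd79a lay below 0 in every library. Of the neutrophil markers 3 of 7 were listed, with sums of 0.489 to 26.0 and of 0.4 to 21.0 RPKM (medians 0.599 and 7.93). All 3 had a log2 fold change above 0 between the TG fractions, with a median of 1.61, and 0 were called. Of the monocyte and macrophage markers 7 of 8 were listed, with sums of 3.71 to 10.2 and of 3.98 to 21.4 RPKM (medians 6.20 and 10.3). Here 5 of the 7 had a log2 fold change above 0, with a median of 0.43, and 0 were called. Mast cell markers were not listed, and of the T and NK cell markers 1 of 7 was, at no more than 0.269 RPKM. Endothelial markers, of a cell type that carries Fcgrt, summed to 1.19 to 1.98 and to 1.13 to 7.59 RPKM. Of the 2 listed, Flt1 was called higher in TG Me-X04+ (a log2 fold change of 3.55 by limma). The other, Pecam1, did not have a log2 fold change above 0 between the TG fractions, and the median of the 2 was 0.54. Beside these sums stood 456 to 904 RPKM of Fcer1g and 34.9 to 72.2 RPKM of Fcgr2b in TG Me-X04- and 1035 to 1523 and 59.7 to 127 RPKM in TG Me-X04+. The sort kept cells positive for Cd11b, Cd45 and Cx3cr1, and the part of other cells in the results was not tested.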

How the data were processed

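RNA-seq libraries of sorted microglia (7 WT, 5 TG Me-X04-, 4 TG Me-X04+) were grouped by their labels. Reads were trimmed by the authors with Trim Galore (0.4.4), aligned to GRCm38 with STAR (2.5.4b), assigned to genes of Gencode M16 with featureCounts, filtered for lowly expressed genes and scaled by TMM, and the authors ran their own tests with edgeR (3.24.3). The authors deposited log2 RPKM values for 17951 genes, with a prior added to the reads. The p-value, score (t and B), log2 fold change and mean expression columns of the authors' own comparisons in the deposited table were not used, nor were the gene length and identifier columns other than as annotation. RNA was amplified before library preparation, and STAR kept reads with several positions, which can affect genes with copies. No library column was without a sample.

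Reads per gene were derived here from the spacing of the low values and the gene lengths (100.0% of them whole within 0.01 reads), for depths and an alternative with voom. Log2 RPKM was tested with limma (3.58.1), 3 groups in 1 fit of 16 libraries with a variance trend, Benjamini-Hochberg adjustment over all genes, and a call at an adjusted p under 0.05 with an absolute log2 fold change of at least 0.7. Ratios of receptors were tested by 2-sided exact permutation over libraries, adjusted over 9 tests. The scripts were tested on simulated data. The genes named outside the members were those of the lists called in TG Me-X04+ versus TG Me-X04- or TG Me-X04- versus WT, Tyrobp, Syk, Inpp5d, Ptpn6 and B2m in any case, called genes within 100 kb of a member (some are not reported here), and the 3 genes with the highest Pearson's r to each member. Members and lists were chosen with earlier results of these data known. Gene symbols missing from the table were taken from the reference for 4874 genes, and coordinates from Gencode M21, a later release than that of the authors.

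By the labels, TG numbers 1 to 4 stand for animals. Deviations of same-numbered libraries from the group means correlated by 0.292 to 0.329 in all 4 pairs, beside 0.272 on average for other numbers of the same set. Different mice reached similar values, with 0.315 on average for WT and TG Me-X04- libraries of other numbers in the same set. The correlations thus cannot decide the pairing of the TG samples, which rests on the labels. WT numbers are other mice. Replicates of a group are separate animals by their labels, so the p-values rest on the spread between animals within groups. The TG fractions share 4 animals, which the main fit and the permutation over libraries do not use. Their p-values between the TG fractions thus treat libraries of the same animal as independent. The block on TG libraries alone and the sign-flip test use the pairing. Alternatives were other scalings, pseudocounts, filters, weights, the block, a term for the sets, voom and leaving out each library. Intervals on counts were not given, since the replicate spread is larger.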

Additional observations from a re-analysis of the deposited data

Results flagged for a closer look

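Of 27 groups of values tested for a single library far from the others, 3 stood out, where chance gives about 1 in 20 groups. All 3 were WT replicate 3, a library of set A. Its Fcgr4 level was -2.45, from 2 reads, beside 0.70 to 2.17 in the other 6 WT libraries. Its log2 ratio of Fcgr4 to Fcgr2b was -8.55, beside -4.41 to -3.42. Its log2 ratio of Fcgr1 to Fcgr2b was -1.13, beside -0.37 to 0.14. Without this library the lower ratio in TG Me-X04+ than in WT passed the test, alone among the 11 fits that left out 1 library, as given above.

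The fitted difference of Fcgrt between TG Me-X04+ and WT was unlike in the 2 sets, which were drawn from these same values. In set A it rested on TG Me-X04+ libraries with 4 and 6 reads. The contrast is thus no independent support for a difference between the sets. The effect in set B minus that in set A was 2.99 ± 0.55 (SE), with a limma adjusted p of 0.0276 over all genes.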

How the results depend on the processing

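Alternatives were run for each count, member, named gene and ratio. The count of the 6 genes called in TG Me-X04+ versus TG Me-X04- (1) became 0 under median centring, quantile normalization, scaling by reads outside mitochondrial genes, a fit of only the 2 groups, only set A, and without both TG Me-X04+ libraries of set A, and 2 with a term for the 2 sets. Against WT the count of 2 became 0 under quantile normalization and 1 without both TG Me-X04+ libraries of set A. Leaving out each library in turn gave 0 to 1, 0 to 0 (TG Me-X04- versus WT) and 1 to 2 calls. The replicate block left the 3 counts at 1, 0 and 2 and changed no call of a member (Fcer1g between the TG fractions 0.95). It also joins WT mice to TG mice of the same number, which are other animals and for number 3 of the other set, so that its values against WT are no paired analysis, and for the TG fractions the block on TG libraries alone is the paired one. The settings with set A or B alone, without both libraries and with animals as a block on TG libraries alone were chosen after seeing the data. The sets were drawn from these same values. The term for the sets, the permutation within sets and the contrasts of effects between the sets are thus not independent of them.

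Of 1709 alternatives over all results, 1456 kept direction and side of the threshold, 159 lost and 29 gained the threshold, 16 moved and 49 turned direction, and the cause was not tested. The fits without both TG Me-X04+ libraries of set A (without both, below) set that fraction of set B against the other groups of both sets, so that set and group are unbalanced in them. Between the TG fractions, Fcgr3 became -0.49 by quantile normalization and -0.038 by reads outside mitochondrial genes, Fcgrt 0.029 in set B alone and 0.53 without both libraries, Inpp5d 0.17 without both, Mir5121 -0.12 in set A alone, and Ptpn6 0.039 with array weights, 0.22 in set B and 0.52 without both. In TG Me-X04- versus WT, Fcgr1 became 0.071 with array weights, 0.011 by quantiles, 0.11 by reads outside mitochondrial genes, 0.0044 with voom and 0.080 in set B, and Fcgrt became -0.22 with array weights and -0.21 in set B. In TG Me-X04+ versus WT, Fcgr3 became -0.23 by quantiles, Fcgrt 0.60 without both, Inpp5d 0.090 with the replicate block and 0.34 without both, and Ptpn6 0.20 in set B and 0.36 without both. The ratio of Fcgr3 to Fcgr2b became 0.29 between the TG fractions without both (in set B alone its means were 2.10 in the dye-negative and 1.88 in the dye-positive TG fraction), and against WT 0.10 with the replicate block and 0.39 without both, while that of Fcgr4 became -0.084 with 1 added to RPKM and -0.12 with the replicate block. Leaving out single libraries gave -0.36 to 0.19 and -0.53 to 0.022 for Ptpn6 (between the TG fractions and against WT), -0.51 to 0.052 for Inpp5d against WT, -0.054 to 0.089 for Fcgr1 and -0.20 to 0.33 for Fcgrt in TG Me-X04- versus WT, and ratios of -0.19 to 0.44 (Fcgr4, TG fractions), -0.14 to 0.31 (Fcgr3, TG Me-X04- versus WT) and -1.24 to -0.93 (Fcgr1, TG Me-X04+ versus WT). Over all genes, calls between the TG fractions were 986, but 470 with only the 2 groups, 85 in set A, 2262 in set B, 493 without both libraries, 655 with a mean of at least 2, 2142 with the set term, and 552 and 624 without TG Me-X04- replicate 5 or TG Me-X04+ replicate 2. In TG Me-X04- versus WT the 36 calls became 175 with array weights, 13 with 1 added to RPKM, 19 and 16 with a mean of at least 0 or 2, 18 with the replicate block, 101 with the set term, 0 and 19 in set A or B, and 19 to 23 without TG Me-X04- replicates 1, 3 or 4. Against WT the 2562 calls became 1419 with a mean of at least 2, 3919 with the set term and 1652 in set A. Scaling by reads outside mitochondrial genes turned 617 higher and 369 lower into 309 and 721. The filter on a mean of 2 left 4 members, without Fcgr4 and Fcgrt, and low reads limit both.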
